A study of Anguilla anguilla with 11 samples.

Results

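The comparison described here is that of silver and yellow European eels (Anguilla anguilla) within a single set of libraries, FG1835, made from the rete mirabile. Its members were taken from the library titles alone, and no measured value was used to choose them. They are 6 of the 11 libraries of the series: 3 from silver eels (FG1835_04, FG1835_05 and FG1835_06) and 3 from yellow eels (FG1835_01, FG1835_02 and FG1835_03). The other 5 libraries, set FG1907, hold 3 silver and 2 yellow eels and share no library with FG1835. All were wild females from Lake Constance that had been kept in freshwater, so no saltwater phase is part of the comparison, and each library came from the perfused rete of a single eel. The silver eels were also the larger animals, so stage and body size cannot be told apart. The labels name the rete mirabile as the tissue, whereas their protocol text speaks of the gas gland. Neither age nor a sequencing date was given per library, and the sources do not say which library was run on which of the sequencers named.

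The rete mirabile is a countercurrent exchanger of parallel arterial and venous capillaries that supplies the gas gland of the swimbladder. The gas gland releases lactic acid, protons and carbon dioxide into the blood, and the rete returns these and dissolved gases from the venous to the arterial side, so that gas tensions build up at the swimbladder pole. Its walls are made of endothelium with few surrounding cells, a basement membrane and a thin matrix between the vessels. Yellow eels are the feeding, growing stage. Silvering is the second metamorphosis, which turns them into silver eels before the spawning migration through the deep ocean.

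The 3 silver libraries held between 10026066 and 12438185 counted reads and the 3 yellow libraries between 10747973 and 12096239, so depth was alike between the stages. Between 32706 and 33595 predicted transcripts had at least 1 read in a library. Expression is given below as the relative expression value, the count divided by the size factor of its library, always in the order FG1835_04, FG1835_05, FG1835_06 for silver eels and FG1835_01, FG1835_02, FG1835_03 for yellow eels. It is not corrected for transcript length, so levels are compared between eels and not between genes. The rank correlation of all transcripts was 0.938 to 0.952 between silver libraries, 0.945 to 0.949 between yellow libraries and 0.938 to 0.946 between a silver and a yellow library. On the first principal component, with 25.2% of the variance, FG1835_04 and FG1835_05 lay at one end and the 3 yellow libraries at the other, with FG1835_06 beside the yellow libraries. On the second, with 22.7%, FG1835_06 and the yellow FG1835_02 lay at opposite ends.

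The tissue label was checked against markers of its cells. Endothelial markers were well expressed in every library. Claudin-5 (cld5), a tight junction protein of endothelium, had relative expression values of 14719, 14531 and 15634 in silver eels compared with 12153, 14291 and 16754 in yellow eels. Vascular endothelial cadherin (cadh5) had 3629.9, 3841 and 3079 in the silver libraries and 2343, 4905 and 4331 in the yellow libraries. Over the 29 endothelial marker transcripts tested, the summed value was 80404, 90604 and 81395 in silver eels compared with 79812, 71346 and 84851 in yellow eels, and the groups overlapped. Smooth muscle and pericyte transcripts were present as well, led by transgelin (tagl) with 46903, 53225 and 42394 in silver eels compared with 39130.0, 40674 and 32975 in yellow eels. Epithelial markers, which bear on the gas gland of the protocol text, were expressed too. The 18 tested summed to 24956, 28452 and 21273.5 in silver eels compared with 25729, 20086 and 21405 in yellow eels. The keratin k1c18 had 7773, 11142 and 11973 reads in the silver libraries and 12576, 10286 and 8809 reads in the yellow libraries. Whether gas gland tissue was present was not tested. Sums of epithelial, nerve and erythrocyte markers overlapped between the stages. Skeletal muscle markers did not, since the silver sums of 2835, 2840.3 and 2784 lay just above the yellow sums of 2779.9, 2603 and 2769. The sums over all transcripts tested did not overlap either. They were 11424683, 11703972 and 11202327 in silver eels compared with 10721478, 10938331 and 10611429 in yellow eels. A slightly higher silver sum is thus no trait of the muscle markers.

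The 5 named transcripts with the highest relative expression values were the chaperone hs90b, the caveolar coat protein ptrf (cavin-1), the elongation factor ef1a, cytoplasmic actin (actg) and the translationally controlled tumour protein tctp. The first of them, heat shock protein 90-beta, had relative expression values of 110243, 147308 and 137545 in silver eels compared with 86731, 93713 and 80389 in yellow eels. Every silver library was above every yellow library, and the log2 difference was positive (0.59, SE 0.16, adjusted p = 0.492, or 0.59 without FG1835_01). Cavin-1 had 93546, 88438 and 84897 in the silver libraries and 87791, 72466 and 80599 in the yellow libraries, and the stages overlapped.

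Of the 24657 transcripts tested with edgeR's quasi-likelihood test, none differed between the stages at an adjusted p under 0.05, and the smallest adjusted p was 0.0896. At an unadjusted p under 0.05 there were 1800 transcripts. DESeq2 called 140 transcripts at an adjusted p under 0.05, of which 45 were higher and 95 lower in silver eels, and limma-voom called 0. At the cut-off that the study used, an unadjusted p under 0.01, edgeR gave 448 transcripts, or 1.82% of those tested. Of these, 168 were higher in silver eels (0.681% of those tested) and 280 were lower (1.14%). A fit that shared the spread with FG1907 tested 27103 transcripts and gave only 167 at that cut-off, a smaller share. The names below are those of transcripts at that cut-off unless stated otherwise, and since no adjusted p passed the threshold they are described by their values and not as established changes.

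The 448 transcripts held mostly large differences. Their median absolute log2 difference was 1.26, 293 were beyond 2-fold and 96 beyond 4-fold. In 438 of them no silver library overlapped a yellow library. Over all transcripts tested, 6.91% had every silver library above every yellow library and 6.41% had every silver library below, so such separation alone was common. When each library in turn was left out, 105 of the 448 kept an unadjusted p under 0.01 every time. Where the omission of a library raised the unadjusted p of a named transcript above 0.01, its log2 difference without the library that raised it most stands beside its value. For transcripts with an unadjusted p under 0.01 the same is given where an omission moved the log2 difference by more than 1.5 times. Those with a larger p are given without this, and some moved as much. The collagen co4a1, for example, went from -0.29 to -0.16 without FG1835_06. Each adjusted p below is that of edgeR's test with Benjamini-Hochberg adjustment over all transcripts tested.

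**Figure D1:**
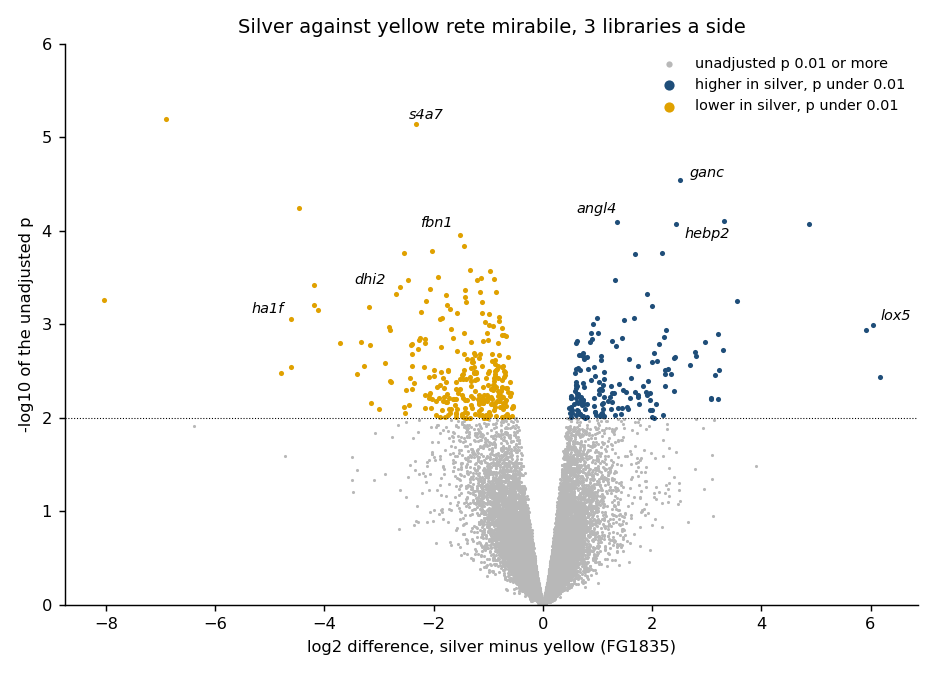
Each point is one of the 24657 transcripts tested, with its log2 difference (silver minus yellow, FG1835) on the horizontal axis and -log10 of its unadjusted p on the vertical axis, where the dotted line marks an unadjusted p of 0.01. The 280 transcripts lower in silver eels outnumber the 168 that were higher, and none passed an adjusted p of 0.05.

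Among named transcripts with a mean relative expression value above 50, the one with the smallest p was a transporter. A predicted transcript for s4a7 (g8954), the electroneutral sodium bicarbonate cotransporter 3 that brings bicarbonate into cells, had relative expression values of 65.5, 56.2 and 47.9 in silver eels compared with 348, 252 and 244 in yellow eels. Silver and yellow eels lay far apart (log2 difference -2.32, SE 0.24, adjusted p = 0.0896). Another predicted transcript for s4a7 (g9801) carried far more reads, with 9446, 6266 and 7145 in the silver libraries and 8349, 8897 and 10391 in the yellow libraries, and there the stages overlapped (log2 difference -0.28, SE 0.19, adjusted p = 0.794, unadjusted p above 0.01). Whether g8954 is another gene copy or a piece of the same gene was not tested. The anion exchanger b3a2, which trades bicarbonate for chloride, had 812, 664 and 448 in silver eels compared with 1321, 841 and 885 in yellow eels (log2 difference -0.67, SE 0.26, adjusted p = 0.644, unadjusted p above 0.01). Of the 25 bicarbonate transporters and carbonic anhydrases tested, 17 were lower in silver eels. Only g8954 had an unadjusted p under 0.01 (4% against 1.14% of all).

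The other leading transcripts with lower values belonged to several roles. Fibrillin-1 (fbn1), the backbone of the microfibrils around vessels, had relative expression values of 357, 299.8 and 235 in silver eels compared with 1039, 813 and 689 in yellow eels. Its groups lay well apart (log2 difference -1.52, SE 0.22, adjusted p = 0.301). The noradrenaline transporter sc6a2, which clears noradrenaline released by sympathetic nerves, had 868, 725 and 1251 in the silver libraries and 2868, 2523 and 2354 in the yellow libraries (log2 difference -1.45, SE 0.22, adjusted p = 0.311). Soluble guanylate cyclase subunit beta-1 (gcyb1), part of the receptor for nitric oxide that relaxes vessels through cGMP, had 769, 944 and 996 in silver eels compared with 1707, 1893 and 1643 in yellow eels. No value overlapped, and the error of the log2 difference was small (-0.96, SE 0.16, adjusted p = 0.377).

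A proton-gated cation channel of the acid-sensing family, acc2a, had 49.1, 31.6 and 36.2 in silver eels compared with 94.3, 161 and 187 in yellow eels, so that every silver eel was below every yellow eel (log2 difference -1.93, SE 0.33, adjusted p = 0.377). Heart-type fatty acid-binding protein (fabph), which carries fatty acids through the cytosol, had 3829, 3823 and 4017 in silver eels compared with 9617, 9610.3 and 6165 in yellow eels. The silver eels lay close together while the yellow eels were spread, and no value overlapped (log2 difference -1.13, SE 0.19, adjusted p = 0.377). A type 2 11-beta-hydroxysteroid dehydrogenase transcript (dhi2, g12369), an enzyme that inactivates cortisol, had 63.3, 18.7 and 83.2 in the silver libraries and 437, 265 and 323 in the yellow libraries (log2 difference -2.62, SE 0.46, adjusted p = 0.386). A dhi2 transcript with far more reads, g16135, had 10558, 8629 and 10649.8 in silver eels compared with 5469, 9346 and 9045 in yellow eels and overlapped between the stages (log2 difference 0.31, SE 0.22, adjusted p = 0.815, unadjusted p above 0.01).

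Further leading lower transcripts were annexin A6 (anxa6), a calcium-dependent membrane-binding protein, with 45.9, 60.9 and 38.0 in silver eels compared with 222, 125 and 238 in yellow eels (log2 difference -2.03, SE 0.32, adjusted p = 0.311). The secreted serine protease htra3 had 75.3, 96.0 and 129 in the silver libraries and 446, 586 and 222 in the yellow libraries (log2 difference -2.06, SE 0.37, adjusted p = 0.386). The transcription factor egr1, an immediate early gene, had 649.5, 751 and 689 in silver eels compared with 1369, 1256 and 1118 in yellow eels (log2 difference -0.85, SE 0.15, adjusted p = 0.386). The Wnt ligand wn10a had 83.0, 66.8 and 97.6 in silver eels compared with 214, 424 and 209 in yellow eels (log2 difference -1.78, SE 0.32, adjusted p = 0.386). The remaining leading lower transcripts were k1161, co6a3, phlb1 and myo1e, with log2 differences of -1.34, -0.89, -1.21 and -1.16. In all 15 no silver library overlapped a yellow library.

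Among named transcripts above that mean with higher expression in silver eels, the smallest p belonged to ganc. This is neutral alpha-glucosidase C, an enzyme that splits glucose from alpha-linked sugars. The transcript ganc had relative expression values of 199, 438 and 336 in silver eels compared with 65.0, 52.4 and 50.6 in yellow eels. All silver eels lay far above all yellow eels (log2 difference 2.52, SE 0.31, adjusted p = 0.236). Angiopoietin-like 4 (angl4), a secreted inhibitor of lipoprotein lipase and a target of fatty acid-sensing receptors, had 1747, 2131 and 1573 in silver eels compared with 768, 786 and 568 in yellow eels (log2 difference 1.35, SE 0.19, adjusted p = 0.259). Heme-binding protein 2 (hebp2) had 5708, 3962 and 4634 in the silver libraries and 622, 1406 and 604 in the yellow libraries (log2 difference 2.43, SE 0.35, adjusted p = 0.259). The lysosome membrane protein scrb2 (g4731), which carries beta-glucocerebrosidase to lysosomes, had 4046, 7864 and 7080.0 in silver eels compared with 1975, 2122 and 959.6 in yellow eels. Here FG1835_04 was lower than the other silver eels but still above every yellow eel (log2 difference 1.90, SE 0.34, adjusted p = 0.386). Another scrb2 transcript, g3680, overlapped between the stages. It had 4976, 4934 and 7997 reads in the silver libraries and 8023, 2034 and 1842 reads in the yellow libraries.

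The purinergic receptor p2rx4, an ATP-gated cation channel that endothelial cells use to sense flow, had 641, 675 and 587 in silver eels compared with 341, 240.0 and 366 in yellow eels, with little spread in either stage (log2 difference 1.00, SE 0.20, adjusted p = 0.406). The angiotensin-converting enzyme ace, held on the luminal face of endothelium where it makes angiotensin II and degrades bradykinin, had 1144, 1119 and 1605 in silver eels compared with 638, 718 and 681 in yellow eels. The yellow eels were nearly equal, and the silver eels lay above them (log2 difference 0.92, SE 0.19, adjusted p = 0.42). The regulator of G-protein signalling rgs3 had 691, 850.3 and 719.6 in the silver libraries and 311, 317 and 482 in the yellow libraries (log2 difference 1.01, SE 0.21, adjusted p = 0.42). The sugar transporter s45a4 had 955, 2849 and 2583 in silver eels compared with 639.8, 433 and 508 in yellow eels, with FG1835_04 far below the other silver eels (log2 difference 2.00, SE 0.38, adjusted p = 0.394).

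The 2 predicted transcripts for arachidonate 5-lipoxygenase (lox5), the enzyme of leukocytes that starts leukotriene synthesis, varied widely among silver eels. The first, g13078, had 1216, 62.1 and 1232 in silver eels compared with 31.1, 2.76 and 2.97 in yellow eels. Thus FG1835_05 was far below the other silver eels, though still above every yellow eel, of which FG1835_01 was the nearest. The fitted log2 difference of 6.04 (SE 1.23) rests mainly on 2 eels. The second, g17581, had 362, 30.4 and 348 in the silver libraries and 11.6, 0 and 0 in the yellow libraries, again with FG1835_05 far below the other silver eels. Its log2 difference was 5.91, or a fitted 10.9 without FG1835_01, when both remaining yellow libraries were at 0. Leukocyte markers summed to 8324, 4738 and 5631 in silver eels compared with 5251, 3527 and 5105 in yellow eels, and overlapped. FG1835_05 was thus the lowest silver eel there too, and the part of leukocyte content in the lox5 values was not tested. The remaining leading higher transcripts, vwa1, kcd21, lrrc4, mpp3 and sept5, had log2 differences of 2.17, 1.68, 1.67, 1.49 and 1.45, and none of them overlapped between the stages. All 30 leading transcripts kept an unadjusted p under 0.01 with any single library left out. They were picked for their small p in these same libraries, so this is no independent check.

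**Figure D2:**
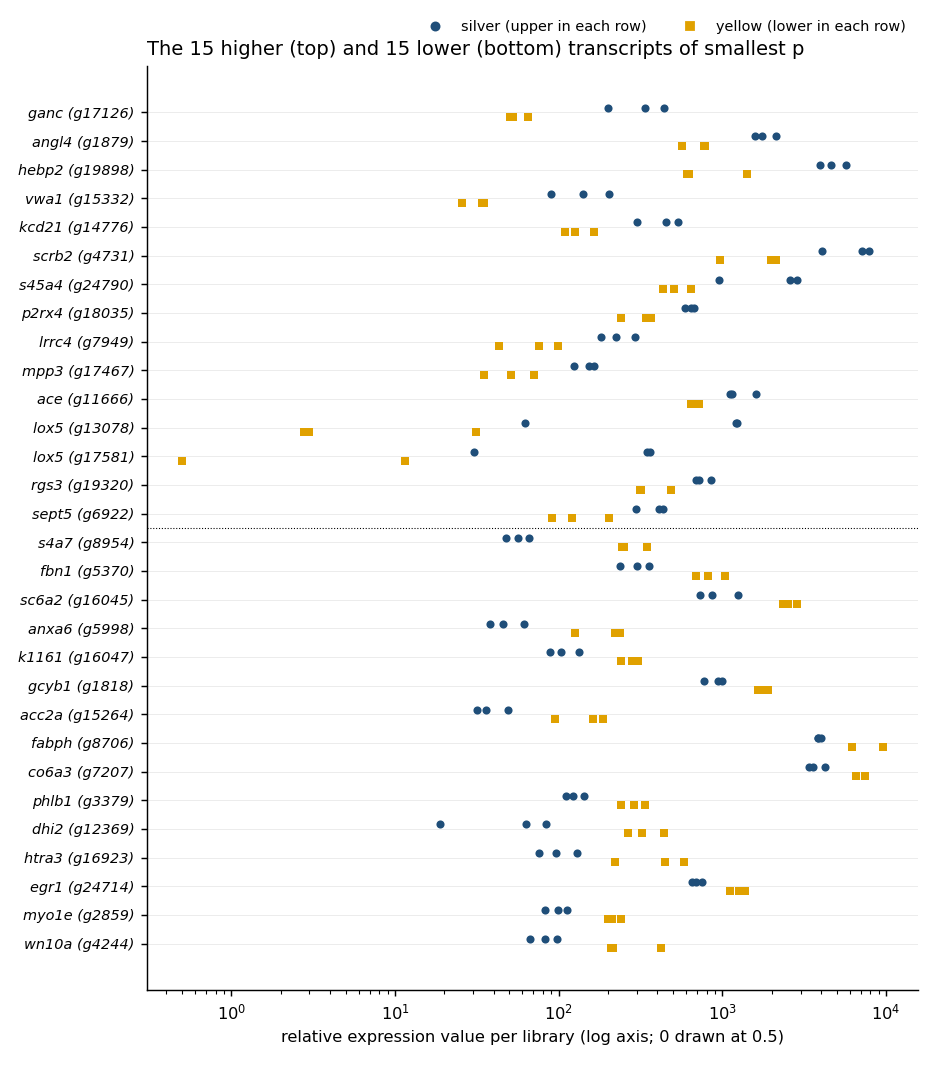
Relative expression value per library (horizontal, log axis) of named transcripts with a mean relative expression value above 50. The 15 with the smallest p among those higher in silver eels stand above the dotted line, and the 15 among those lower below it. Each row shows 3 silver eels (circles) over 3 yellow eels (squares), with values of 0 drawn near the left edge. No row overlaps between the stages, and the lox5 rows show FG1835_05 far below the other silver eels, at 62.1 against 1216 and 1232 for g13078.

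The extracellular matrix held many transcripts with lower values. Of 43 collagen transcripts tested, 42 were lower in silver eels and 1 higher, with a median log2 difference of -0.76, whereas over all transcripts 49.8% were lower and the median was 0.00. Of these collagens 11 had an unadjusted p under 0.01, all lower, which is 25.6% against the background of 1.14%. In 18 of them every silver eel was below every yellow eel, 41.9% against 6.41% of all transcripts. The names co6a3, co6a2 and co5a1 recur among the 11. Here and in other lists, transcripts of 1 name may be pieces or copies of 1 gene and not independent of each other. The median stayed between -0.85 and -0.59 when each library was left out. Collagen transcripts were summed to 71712, 56112 and 53482 in silver eels compared with 91806, 88827 and 80030.3 in yellow eels.

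Collagen VI, the beaded filament that links basement membranes to the surrounding matrix, gave 5 of these 11 transcripts. Its alpha-3 chain (co6a3, g7207) had relative expression values of 3363, 3584 and 4202 in silver eels compared with 6511, 7473 and 6512 in yellow eels (log2 difference -0.89, SE 0.15, adjusted p = 0.377). A second co6a3 transcript (g6412) had 418, 561 and 364 in the silver libraries and 793, 1052 and 1043 in the yellow libraries (log2 difference -1.12, SE 0.21, adjusted p = 0.386). Neither overlapped between the stages. The alpha-2 chain (co6a2) transcript g14641 had 3285, 3010.2 and 3592 in silver eels compared with 5099.7, 5060.3 and 4137 in yellow eels (log2 difference -0.54, SE 0.15, adjusted p = 0.513, or -0.49 without FG1835_01). The co6a2 transcript g8369 had 775, 698 and 574 in the silver libraries and 1704, 1045 and 1037 in the yellow libraries (log2 difference -0.90, SE 0.23, adjusted p = 0.492, or -0.80 without FG1835_06). Collagen V (co5a1, g1516), which starts the assembly of fibrils, had 990.2, 889 and 744 in silver eels compared with 1345, 1830.5 and 1228 in yellow eels (log2 difference -0.76, SE 0.20, adjusted p = 0.492, or -0.57 without FG1835_02).

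Among collagens with fewer reads, the log2 differences of cooa1 and cola1 were larger. The collagen cooa1 had 45.9, 46.9 and 136 in silver eels compared with 210.0, 395 and 158 in yellow eels (log2 difference -1.73, SE 0.50, adjusted p = 0.515, or -1.26 without FG1835_02). The collagen cola1 had 36.0, 28.1 and 61.5 in silver eels compared with 170.0, 131 and 104 in yellow eels (log2 difference -1.68, SE 0.35, adjusted p = 0.42). The fibrillar collagen I chains, main products of fibroblasts, had smaller log2 differences. The chain co1a2 had 9658, 5272 and 7083 in silver eels compared with 11633, 10386 and 9684 in yellow eels (log2 difference -0.53, SE 0.22, adjusted p = 0.668, unadjusted p above 0.01). The chain co1a1 overlapped, with 8242, 4226 and 5506 in the silver libraries and 9209, 8709 and 7569.5 in the yellow libraries. Collagen IV of the basement membrane (co4a1), the collagen with the highest relative expression value, had 11801, 12755 and 8837 in silver eels compared with 13669, 13297 and 13517 in yellow eels (log2 difference -0.29, SE 0.16, adjusted p = 0.754, unadjusted p above 0.01).

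Laminins and nidogens, which with collagen IV form the basement membrane, were also mostly lower: 43 of 47 were lower, with a median log2 difference of -0.61. The 4 with an unadjusted p under 0.01 were lower as well (8.51% against 1.14% of all). They were lama5, nid1 (g17550 and g33135) and the proteoglycan perlecan (pgbm), which the list also holds. The laminin chain lama5 had 102, 67.9 and 61.5 in silver eels compared with 159, 136 and 149.7 in yellow eels (log2 difference -0.96, SE 0.25, adjusted p = 0.492, or -0.90 without FG1835_01). The member with the highest value, nidogen-2 (nid2), overlapped between the stages, with 15416, 12399 and 17389 in the silver libraries and 13334, 13362 and 12991 in the yellow libraries (log2 difference 0.18, SE 0.16, adjusted p = 0.862, unadjusted p above 0.01).

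Of 48 elastic fibre and matricellular transcripts, 30 were lower and 18 higher, and the median of -0.29 turned to 0.02 without FG1835_01. SPARC (sprc), a collagen-binding glycoprotein, had 10253, 8932 and 9122 in silver eels compared with 13830.0, 16420.1 and 14629.5 in yellow eels (log2 difference -0.67, SE 0.14, adjusted p = 0.42). A fibronectin transcript (finc) had 347, 440.4 and 470.1 in silver eels compared with 1073, 583 and 1363 in yellow eels (log2 difference -1.27, SE 0.30, adjusted p = 0.468, or -1.16 without FG1835_04). Thrombospondin-1 (tsp1), the member with the highest value, overlapped, with 23432, 18705 and 28069 in the silver libraries and 17027, 35049 and 33798 in the yellow libraries. Fibrillin-1, described above, was the member with the smallest p.

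The proteases that cut matrix were mostly lower too. Of 63 metalloproteinases and inhibitors, 49 were lower, with a median log2 difference of -0.47. The 4 below an unadjusted p of 0.01 were the proteases ats8, ats18, mmp28 and mmp11, all lower (6.35% against 1.14% of all). For example ats18 had 84.1, 132 and 67.8 in silver eels compared with 189.5, 433 and 178 in yellow eels (log2 difference -1.51, SE 0.40, adjusted p = 0.492, or -1.32 without FG1835_06 and -0.97 without FG1835_02), while the inhibitor timp2 overlapped between the stages (log2 difference -0.09, SE 0.19, adjusted p = 0.957, unadjusted p above 0.01). Among heparan sulfate enzymes and proteoglycans, 38 of 50 were lower (median -0.27). Glypican-6 (gpc6), a membrane-anchored proteoglycan, had 206, 231 and 202 in the silver libraries and 357, 393 and 365 in the yellow libraries (log2 difference -0.81, SE 0.16, adjusted p = 0.406). Opposite to these, the sulfotransferase hs3s1, which finishes anticoagulant heparan sulfate in endothelium, had 852, 918 and 1187 in silver eels compared with 479.6, 599 and 275 in yellow eels and was higher (log2 difference 1.12, SE 0.28, adjusted p = 0.476, or 0.95 without FG1835_06).

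Small leucine-rich proteoglycans showed less. Of 13 members 11 were lower, none with an unadjusted p under 0.01, and their median of -0.14 ran from -0.56 to 0.02 as libraries were left out. Decorin (pgs2, g12395), which binds collagen fibrils, had 2975, 2823 and 1971 in silver eels compared with 4463, 2951 and 4267 in yellow eels (log2 difference -0.60, SE 0.22, adjusted p = 0.62, unadjusted p above 0.01). The Fras1 matrix protein (fras1, g9250) had 92.8, 432 and 9.04 in silver eels compared with 682, 2064 and 1679 in yellow eels. The stages were separate although the silver eels were widely spread (log2 difference -3.08, SE 1.00, adjusted p = 0.56, unadjusted p above 0.01). Over all 7 matrix lists together, 218 of 270 transcripts were lower and 52 higher. At an unadjusted p under 0.01 were 25 lower ones (9.26% of the 270 against 1.14% of all) and 2 higher ones (0.74% against 0.681%).

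**Figure D3:**
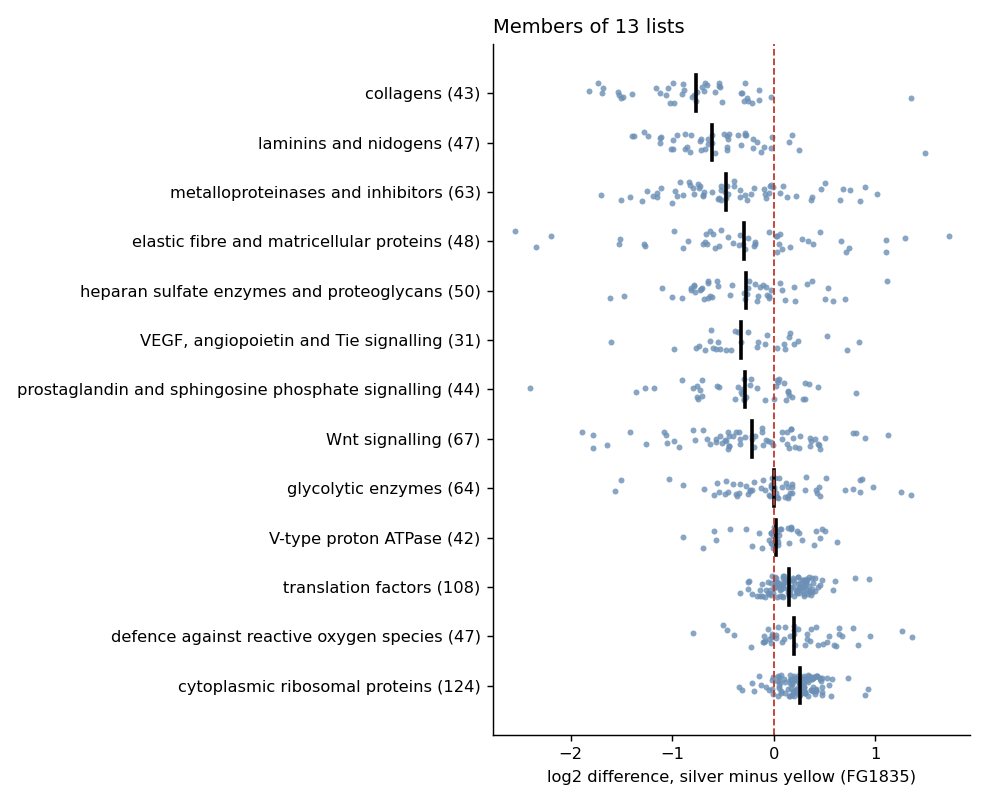
Log2 difference (silver minus yellow, FG1835) of every tested member of 13 lists, 1 point per transcript, with the number of members in brackets, the list's median as a black bar and the median of all transcripts as a dashed line. Collagens (median -0.76) and laminins (median -0.61) lie mostly below 0, glycolytic enzymes and the proton ATPase around 0, and ribosomal proteins (median 0.26) mostly above.

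Fibroblast markers were lower as well. In bulk tissue fewer cells of a type and less RNA per cell cannot be told apart. Of 18 fibroblast marker transcripts tested, 14 were lower in silver eels, and the summed value was 33532, 21371 and 25675 in silver eels compared with 41806, 40807 and 38163 in yellow eels. These sums did not overlap, but 16 of the 18 markers themselves stand in the matrix lists above. The other 2 are the alpha receptor of platelet-derived growth factor (pgfra) and dermatopontin (derm). The receptor had 163, 129 and 101 in silver eels compared with 229.6, 229.8 and 312 in yellow eels (log2 difference -0.99, SE 0.24, adjusted p = 0.469, or -0.82 without FG1835_03). The log2 difference of derm was -0.46 with an unadjusted p above 0.05, and the sums of both, at 1189, 828 and 615 in silver eels and 1062, 954 and 1805 in yellow eels, overlapped. Among 254 matrix transcripts that are no fibroblast marker, 206 were lower, with a median of -0.46. The part of fibroblast content in the matrix difference was not tested.

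Markers of mural cells, the pericytes and smooth muscle around vessels, summed to 115045, 111315 and 92145 in silver eels compared with 115852, 111409 and 100078 in yellow eels, and overlapped. Transgelin and smooth muscle actin (acta) carried most of the sum, with log2 differences of 0.33 and -0.07 and adjusted p values of 0.694 and 0.971. By contrast 20 of 25 mural markers were lower, with a median of -0.28 (-0.16 without FG1835_01). The pericyte proteoglycan cspg4 (g2571) had 2403, 3304 and 2439.8 in silver eels compared with 5398, 4133 and 4503 in yellow eels (log2 difference -0.80, SE 0.18, adjusted p = 0.458, or -0.68 without FG1835_01).

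**Figure D4:**
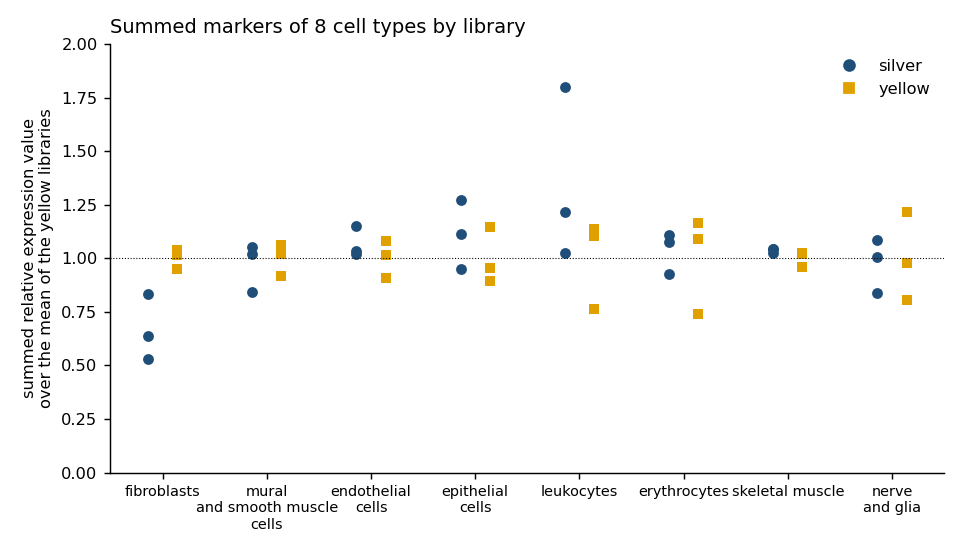
Summed relative expression value of the markers of 8 cell types in each library, divided by the mean of the 3 yellow libraries (vertical axis from 0), with silver eels as circles at the left and yellow eels as squares at the right of each pair. Fibroblast sums of the silver eels lie below those of the yellow eels, skeletal muscle sums barely above, and the other types overlap, with FG1835_04 highest for leukocytes.

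A further group with lower expression was the ATP-sensitive potassium channel, which in vascular muscle and pericytes couples metabolism to membrane potential and so to vessel tone. Its pore subunit irk8 (Kir6.1) had relative expression values of 545, 540.0 and 471 in silver eels compared with 903, 799.9 and 831 in yellow eels. The silver eels were close to each other and below all yellow eels (log2 difference -0.71, SE 0.15, adjusted p = 0.42). Its regulatory subunit SUR2 (abcc9) was represented by 3 tested transcripts at that cut-off. The first, g19365, had 449.8, 713 and 399.6 in silver eels compared with 969, 986 and 868 in yellow eels (log2 difference -0.87, SE 0.23, adjusted p = 0.492, or -0.77 without FG1835_04). The second, g26749, had 267, 426 and 277 in the silver libraries and 553, 531 and 519 in the yellow libraries (log2 difference -0.74, SE 0.21, adjusted p = 0.495, or -0.62 without FG1835_04). The third, g37377, had 116, 169.8 and 134 in silver eels compared with 283, 325 and 239.9 in yellow eels (log2 difference -1.03, SE 0.22, adjusted p = 0.42). In all 3 FG1835_05 was the highest silver eel and no silver eel reached a yellow eel. Such transcripts of 1 name may be pieces or copies of 1 gene and are not independent of each other. Mural cells, which carry this channel, had markers with a median of -0.28, or -0.16 without FG1835_01, and their part in these values was not tested.

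Over the whole potassium channel list 23 of 40 were lower, near the share of all transcripts, and 4 had an unadjusted p under 0.01, all lower (10% against 1.14%). The leak channel kcnk4 had 133, 125 and 94.9 in silver eels compared with 222, 572 and 298 in yellow eels (log2 difference -1.64, SE 0.35, adjusted p = 0.42). The L-type calcium channel subunit cac1c had 122, 141 and 126 in the silver libraries and 177, 229.8 and 218 in the yellow libraries (log2 difference -0.70, SE 0.19, adjusted p = 0.492, or -0.62 without FG1835_02). The T-type subunit cac1h had 102, 102 and 70.5 in silver eels compared with 182, 353 and 139.8 in yellow eels (log2 difference -1.31, SE 0.36, adjusted p = 0.492, or -1.16 without FG1835_06 and -0.83 without FG1835_02). Of 46 calcium channel and store-operated entry transcripts 30 were lower. Only cac1c and cac1h had an unadjusted p under 0.01 (4.35% against 1.14% of all). The sodium channel sc4aa had 2941, 3209 and 4647 in silver eels compared with 6964, 6552 and 7672 in yellow eels (log2 difference -0.98, SE 0.20, adjusted p = 0.42). Piezo1 (piez1), the mechanically gated channel of endothelium, overlapped, with 2009.8, 2053 and 1979 in the silver libraries and 2249.5, 1967 and 2384 in the yellow libraries.

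Besides ace and gcyb1, some genes for vasoactive peptides were at that cut-off. Those given here, edn2 and adm2, were chosen after their values were seen. Endothelin-2 (edn2), a constrictor peptide, had 443, 854 and 777 in silver eels compared with 335, 315 and 335 in yellow eels (log2 difference 1.06, SE 0.24, adjusted p = 0.458, or 1.03 without FG1835_02). The dilator peptide adrenomedullin-2 (adm2) had 218, 129 and 194 in the silver libraries and 80.1, 66.2 and 101 in the yellow libraries (log2 difference 1.12, SE 0.28, adjusted p = 0.469, or 0.96 without FG1835_04). Both peptides were separate between the stages. The endothelin receptor transcript with the highest value (ednra, g11336) overlapped, with 15360.0, 15551 and 12694 in silver eels compared with 12332, 9924 and 14576 in yellow eels (log2 difference 0.23, SE 0.18, adjusted p = 0.837, unadjusted p above 0.01). Of 31 members of the endothelin, angiotensin and natriuretic list, 3 were higher at an unadjusted p under 0.01 (9.68% against 0.681% of all) and gcyb1 alone was lower (3.23% against 1.14%).

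Several growth factors and receptors had lower values. Insulin-like growth factor I (igf1), which promotes growth and is made by many mesenchymal cells, had relative expression values of 319, 485 and 1118 in silver eels compared with 2759, 2287 and 1228 in yellow eels. Yellow FG1835_03 and silver FG1835_06 nearly met (log2 difference -1.71, SE 0.47, adjusted p = 0.492, or -1.54 without FG1835_05). Insulin-like growth factor II (igf2) had 87.3, 110.1 and 99.4 in silver eels compared with 186, 258 and 194 in yellow eels, with both groups tight (log2 difference -1.11, SE 0.22, adjusted p = 0.404). The binding protein ibp3 overlapped, with 5512, 18769.5 and 7805 in the silver libraries and 12849, 11579 and 11759 in the yellow libraries. Of 33 members of this axis 17 were lower and 16 higher. In 7 of them each silver eel was below each yellow eel (21.2% against 6.41% of all), and in 1 above. The 2 at an unadjusted p under 0.01 (6.06% against 1.14%) were igf1 and igf2, and many of the other members are insulin receptor transcripts.

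The 3 isoforms of transforming growth factor beta share receptors, and 2 of them lay on opposite sides. The isoform tgfb3 had 415, 502 and 356 in silver eels compared with 740.4, 681 and 651 in yellow eels (log2 difference -0.71, SE 0.17, adjusted p = 0.469, or -0.66 without FG1835_01). The isoform tgfb1 had 1104, 1162 and 1064 in silver eels compared with 694, 845 and 771 in yellow eels (log2 difference 0.52, SE 0.15, adjusted p = 0.513, or 0.45 without FG1835_01). Neither overlapped between the stages, while the list's median was -0.02 (-0.10 without FG1835_05) over 85 members. Angiopoietin-1 (angp1, g13602), a pericyte factor that steadies vessels through the Tie2 receptor, had 467, 382 and 556 in the silver libraries and 735, 681 and 816 in the yellow libraries (log2 difference -0.68, SE 0.19, adjusted p = 0.492, or -0.60 without FG1835_03). In the VEGF, angiopoietin and Tie list 21 of 31 were lower, with a median of -0.32 (-0.21 without FG1835_02). Its member with the highest value, the endothelial phosphatase ptprb, overlapped (log2 difference 0.16, SE 0.17, adjusted p = 0.889, unadjusted p above 0.01).

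Wnt signalling held several transcripts with lower values. The transcripts axn2, ccnd1 and dkk1 below were chosen after their values were seen. Besides wn10a, the ligand wnt7b had 295, 279.9 and 426 in silver eels compared with 564, 754 and 583 in yellow eels (log2 difference -0.93, SE 0.22, adjusted p = 0.468, or -0.79 without FG1835_02). Axin-2 (axn2), a standard target of the pathway, had 44.8, 24.6 and 46.1 in the silver libraries and 88.1, 143 and 76.3 in the yellow libraries (log2 difference -1.41, SE 0.36, adjusted p = 0.477, or -1.10 without FG1835_02). The cyclin ccnd1, often listed as another target, had 75.3, 39.8 and 61.5 in silver eels compared with 174, 221 and 131 in yellow eels (log2 difference -1.58, SE 0.31, adjusted p = 0.404). The secreted inhibitor dkk1 was higher, with 164, 118 and 165 in silver eels compared with 91.7, 86.4 and 75.3 in yellow eels (log2 difference 0.81, SE 0.23, adjusted p = 0.495, or 0.74 without FG1835_04). Of 67 Wnt transcripts 44 were lower, 4 with an unadjusted p under 0.01 (5.97% against 1.14% of all), and the median was -0.22.

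Lysophosphatidic acid is a lipid signal made outside cells by autotaxin. Autotaxin (enpp2), chosen after its values were seen, had 45.9, 32.8 and 30.7 in silver eels compared with 198, 87.3 and 107 in yellow eels (log2 difference -1.85, SE 0.37, adjusted p = 0.406). The receptor lpar6 (g15733) had 284, 249 and 343 in the silver libraries and 519, 616 and 501 in the yellow libraries (log2 difference -0.91, SE 0.19, adjusted p = 0.42). The phosphatase lpp1, which degrades the lipid, had 347, 443 and 417 in silver eels compared with 763, 507 and 760.3 in yellow eels (log2 difference -0.76, SE 0.21, adjusted p = 0.492, or -0.67 without FG1835_04). None of these 3 overlapped. The phosphatase lpp3, with many more reads, overlapped between the stages, with 21781, 17754 and 14431 in silver eels compared with 17825, 11236 and 19486 in yellow eels. In the prostaglandin, sphingosine phosphate and lysophosphatidic acid list 27 of 44 were lower (median -0.28).

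Neural adhesion and guidance genes, many of which also guide vessels, held 10 lower and 2 higher transcripts at an unadjusted p under 0.01 among 146 tested. These are 6.85% lower and 1.37% higher, where all transcripts had 1.14% and 0.681%. Of the members given here, efnb1, ncam1 and nptx1 were chosen after their values were seen. Ephrin-B1 (efnb1, g20886), a membrane-bound ligand of Eph receptors, had 451, 342 and 207 in silver eels compared with 882, 556 and 947 in yellow eels (log2 difference -1.27, SE 0.31, adjusted p = 0.469, or -1.12 without FG1835_03). The neural cell adhesion molecule ncam1 had 252, 316 and 270.3 in the silver libraries and 419, 399 and 664 in the yellow libraries (log2 difference -0.83, SE 0.23, adjusted p = 0.492, or -0.76 without FG1835_04). Neuronal pentraxin-1 (nptx1) had 55.7, 2.34 and 36.2 in silver eels compared with 65.0, 269 and 430.2 in yellow eels, a wide spread within each stage (log2 difference -3.01, SE 0.87, adjusted p = 0.515, or -2.40 without FG1835_03). Integrin subunits ita8 and ita9, which bind fibronectin and tenascin-type matrix, were lower, with log2 differences of -1.10 (adjusted p = 0.42) and -0.81 (adjusted p = 0.492, or -0.64 without FG1835_03), while the integrin list as a whole had a median of -0.01. The junctional adhesion molecule jam3 had 748, 731 and 793 in silver eels compared with 1106, 1296 and 1413 in yellow eels (log2 difference -0.76, SE 0.16, adjusted p = 0.42).

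Of 26 monocarboxylate carriers and lactate dehydrogenases, 16 were lower. At an unadjusted p under 0.01 were 3 lower ones (11.5% against 1.14% of all) and 1 higher one (3.85% against 0.681%). The monocarboxylate transporter 1 (mot1), which moves lactate together with a proton, had 856, 904 and 1109 in silver eels compared with 1647, 1614 and 1529.6 in yellow eels for g33555 (log2 difference -0.75, SE 0.16, adjusted p = 0.42). A second mot1 transcript, g33801, had 1829, 1931 and 1602 in the silver libraries and 2751, 2767 and 2237 in the yellow libraries (log2 difference -0.54, SE 0.16, adjusted p = 0.514, or -0.49 without FG1835_01). Basigin (basi), the chaperone that brings mot1 to the membrane, had 857, 916 and 1748 in silver eels compared with 2321, 2217 and 2929 in yellow eels, with FG1835_06 nearest to the yellow eels (log2 difference -1.09, SE 0.29, adjusted p = 0.492, or -0.94 without FG1835_05). The enzymes that interconvert lactate and pyruvate lay on the other side. Lactate dehydrogenase A (ldha, g21680) had 769, 418 and 408 in silver eels compared with 221, 313 and 284 in yellow eels (log2 difference 0.95, SE 0.28, adjusted p = 0.535, or 0.82 without FG1835_01 and 0.59 without FG1835_04). The B form (ldhb) had 26002, 29970.4 and 25207 in the silver libraries and 19945, 20625 and 19208 in the yellow libraries, also without overlap (log2 difference 0.43, SE 0.14, adjusted p = 0.559, unadjusted p above 0.01).

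Transcripts of glucose metabolism lay on both sides. Of 64 glycolytic transcripts 33 were lower and 31 higher, with a median of 0.00. Aldolase C (aldoc) had 217, 235 and 171 in silver eels compared with 299.9, 395 and 570.0 in yellow eels (log2 difference -1.03, SE 0.26, adjusted p = 0.476, or -0.92 without FG1835_06). Muscle glycogen phosphorylase (pygm), which releases glucose from glycogen, had 75.3, 92.5 and 66.9 in silver eels compared with 161, 171 and 154 in yellow eels for g28710 (log2 difference -1.06, SE 0.21, adjusted p = 0.411). For g45858 it had 64.4, 73.8 and 80.5 in the silver libraries and 159, 129.6 and 146 in the yellow libraries, and neither transcript overlapped. The glucose transporter gtr1 overlapped, with 2967, 3841 and 2104 in silver eels compared with 2872, 3101 and 2686 in yellow eels. A complex I subunit of the respiratory chain, ndus1, had 944, 1256 and 531 in silver eels compared with 297, 384 and 387 in yellow eels (log2 difference 1.34, SE 0.30, adjusted p = 0.429), though the median of 97 oxidative phosphorylation transcripts was 0.05 (-0.00 without FG1835_03).

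In lipid and glycerol metabolism, 2 transcripts for cytosolic glycerol-3-phosphate dehydrogenase (gpda), which links glycolysis to glycerolipid synthesis, were higher. The first, g25407, had 672, 616 and 255 in silver eels compared with 208, 181 and 122 in yellow eels (log2 difference 1.58, SE 0.37, adjusted p = 0.461, or 1.39 without FG1835_03). The second, g30476, had 288, 371 and 167 in the silver libraries and 158, 95.6 and 129 in the yellow libraries (log2 difference 1.10, SE 0.32, adjusted p = 0.515, or 0.83 without FG1835_05). The sterol enzyme cp51a, lanosterol demethylase, had 429, 312 and 297 in silver eels compared with 149, 94.7 and 181 in yellow eels (log2 difference 1.27, SE 0.28, adjusted p = 0.42). With angl4 higher and fabph lower, the 59 transcripts of the glycerol-3-phosphate dehydrogenase and lipid list had a median of -0.03. Among amino acid and related carriers, the creatine transporter sc6a8 had 172, 224 and 222 in silver eels compared with 414, 416 and 294 in yellow eels (log2 difference -0.87, SE 0.21, adjusted p = 0.469, or -0.76 without FG1835_04). The carrier lat2 had 175, 117 and 196 in the silver libraries and 524, 205 and 695 in the yellow libraries (log2 difference -1.55, SE 0.42, adjusted p = 0.492, or -1.17 without FG1835_03).

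Aquaporin-1 (aqp1), a channel for water and also for carbon dioxide, had 1740.2, 262 and 1989 in silver eels compared with 326, 411 and 337 in yellow eels. FG1835_05 was below every yellow eel, and the other silver eels were far above them (log2 difference 1.89, SE 0.60, adjusted p = 0.559, unadjusted p above 0.01). The sodium-potassium ATPase subunit at1a1 (g10968) had 2561, 2518 and 2687 in silver eels compared with 2460.4, 2207 and 2043 in yellow eels, so that each silver eel was above each yellow eel (log2 difference 0.20, SE 0.14, adjusted p = 0.817, unadjusted p above 0.01). Of 40 sodium-potassium and calcium ATPase transcripts 24 were lower, none with an unadjusted p under 0.01, and in 5 each silver eel was below each yellow eel (12.5% against 6.41% of all). Of 42 proton ATPase transcripts 17 were lower, none with an unadjusted p under 0.01 (median 0.02).

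Transcripts for defence against reactive oxygen species leaned upward: 32 of 47 were higher, with a median of 0.20 that stayed between 0.13 and 0.29 with each library left out. In 8 of the 47 every silver eel was above every yellow eel, against 6.91% of all transcripts, and in none was it the reverse. Phospholipid glutathione peroxidase (gpx41), which reduces lipid peroxides in membranes, had 885, 1636 and 1452 in silver eels compared with 349, 819 and 478 in yellow eels (log2 difference 1.26, SE 0.34, adjusted p = 0.492, or 1.18 without FG1835_03). Extracellular superoxide dismutase (sode) had 133, 131 and 161 in the silver libraries and 73.9, 108 and 64.4 in the yellow libraries (log2 difference 0.78, SE 0.26, adjusted p = 0.56, unadjusted p above 0.01). Beside hebp2, the heavy subunit of ferritin (frih), which stores iron, had 21917, 23266 and 18421 in silver eels compared with 13473, 17737 and 12843 in yellow eels (log2 difference 0.52, SE 0.17, adjusted p = 0.564, unadjusted p above 0.01). Of 23 heme and iron transcripts 17 were higher, and 1 had an unadjusted p under 0.01 (4.35% against 0.681% of all).

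Cytoplasmic ribosomal proteins leaned upward with small differences. Of 124 tested, 112 were higher in silver eels, and their median log2 difference was 0.26. Only 2 had an unadjusted p under 0.01 (1.61% against 0.681% of all), but in 46 every silver eel was above every yellow eel (37.1% against 6.91%) and in none the reverse. Their sum was 1100756, 1057132 and 1258015 in silver eels compared with 936067, 1016294 and 839003 in yellow eels. As given above, the sums over all transcripts tested were higher in silver eels too. The median remained between 0.17 (without FG1835_06) and 0.33 with each library left out.

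The 2 ribosomal proteins at that cut-off were rs20 and rs21. The small subunit protein rs20 had 25513, 25612 and 27684 in silver eels compared with 19376, 19894 and 17152 in yellow eels (log2 difference 0.47, SE 0.14, adjusted p = 0.515, or 0.41 without FG1835_03). Its partner in that subunit rs21 had 10225, 10687 and 12223 in the silver libraries and 7096, 8726 and 6789 in the yellow libraries (log2 difference 0.54, SE 0.16, adjusted p = 0.521, or 0.50 without FG1835_01). The one with the highest value, rl7a of the large subunit, overlapped (log2 difference 0.16, SE 0.15, adjusted p = 0.862, unadjusted p above 0.01). Translation factors leaned the same way, with 87 of 108 higher and a median of 0.15. The cap-binding factor if4e2 had 532, 681 and 678 in silver eels compared with 285, 432 and 263 in yellow eels (log2 difference 0.94, SE 0.23, adjusted p = 0.469, or 0.85 without FG1835_01). The initiation factor subunit eif3h (g11687) had 2339, 2668 and 2349 in the silver libraries and 1771, 1515 and 1513 in the yellow libraries (log2 difference 0.61, SE 0.15, adjusted p = 0.469, or 0.57 without FG1835_03).

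The immediate early gene egr1, which responds within minutes to growth factors, shear stress or handling, appeared with 4 transcripts, all lower in silver eels. Beside g24714 above, g19351 had 278, 562 and 733 in silver eels compared with 1305, 1268 and 1169.7 in yellow eels (log2 difference -1.26, SE 0.31, adjusted p = 0.469, or -1.22 without FG1835_01). The transcript g37376 had 39.3, 31.6 and 66.9 in the silver libraries and 139.7, 91.9 and 117 in the yellow libraries (log2 difference -1.34, SE 0.34, adjusted p = 0.476, or -1.18 without FG1835_01). The last, g44008, had 33.8, 23.4 and 89.5 in silver eels compared with 174, 102 and 159.6 in yellow eels (log2 difference -1.56, SE 0.48, adjusted p = 0.548, unadjusted p above 0.01). No silver eel reached a yellow eel in any of the 4, which are not independent of each other. Of 50 immediate early transcripts 28 were lower, with a median of -0.08 (-0.29 without FG1835_05). In 8 of them (16% against 6.41% of all) each silver eel was below each yellow eel, and in none was it the reverse. The 4 at an unadjusted p under 0.01 (8% against 1.14%) were g24714, g19351 and g37376 of egr1 and a transcript of the nuclear receptor nr4a1 (g38591) with few reads (log2 difference -2.51, with an unadjusted p above 0.01 when FG1835_01 was left out). The list's member with the highest value, klf4, had 7387, 23788 and 3739 in silver eels compared with 5181, 5913 and 6729.9 in yellow eels, with FG1835_05 far above every other eel. The time between capture, handling and sampling of each eel was not given.

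Among stress and clock genes, the chaperone dnjb5 had 164, 114 and 99.4 in silver eels compared with 386, 750.2 and 232 in yellow eels (log2 difference -1.87, SE 0.41, adjusted p = 0.43), while the 68 heat shock transcripts had a median of 0.02 (0.23 without FG1835_02). The clock-controlled factor tef had 300.2, 118 and 261 in the silver libraries and 572, 568 and 469.9 in the yellow libraries (log2 difference -1.25, SE 0.32, adjusted p = 0.481, or -1.21 without FG1835_02). The clock gene per2 had 147, 116 and 179.9 in silver eels compared with 306, 191 and 297 in yellow eels (log2 difference -0.85, SE 0.26, adjusted p = 0.548, unadjusted p above 0.01). Of 54 clock transcripts 28 were higher. The oestrogen receptor esr1 (g23190) had 811, 949 and 1205 in silver eels compared with 721, 468 and 589.8 in yellow eels, above all yellow eels (log2 difference 0.73, SE 0.22, adjusted p = 0.547, unadjusted p above 0.01).

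Antigen presentation genes varied strongly between eels. A class I heavy chain transcript (ha1f, g26592) had 8.73, 4.69 and 0 in silver eels compared with 43.6, 67.1 and 208 in yellow eels (log2 difference -4.60, SE 0.92, adjusted p = 0.406). Another, ha18, had 7.64, 73.8 and 9.94 in the silver libraries and 194, 188 and 224 in the yellow libraries, with FG1835_05 above the other silver eels but below every yellow eel (log2 difference -2.77, SE 0.71, adjusted p = 0.481, or -2.69 without FG1835_03 and -4.50 without FG1835_05). Class I genes differ between individuals in sequence and copy number, and their part in these values was not tested. The light chain b2mg, which all class I molecules share, overlapped, with 38801, 41858 and 38466 in silver eels compared with 26958, 33385 and 40964 in yellow eels. The immunoproteasome subunit psb8 was higher, with 1079, 914 and 828 in silver eels compared with 511, 633 and 681 in yellow eels (log2 difference 0.62, SE 0.18, adjusted p = 0.52, or 0.51 without FG1835_01). Lysozyme g (lyg) had 115, 469 and 444 in silver eels compared with 116, 57.0 and 43.6 in yellow eels, so that FG1835_04 was level with the highest yellow eel (log2 difference 2.23, SE 0.55, adjusted p = 0.472, or 2.09 without FG1835_02).

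The second library set was used to see how the same transcripts lay in other eels. Within FG1907, with 3 silver and 2 yellow eels, 121 of 23319 transcripts had an unadjusted p under 0.01 (0.519%), and none an adjusted p under 0.05 with edgeR (649 had an unadjusted p under 0.05). With the silver library FG1907_02 left out, 275 of 22382 had an unadjusted p under 0.01. Of the 448 transcripts, 394 were tested there and 188 of these (47.7%) had the same sign, compared with 49.0% of all 21999 transcripts tested in both. For those higher in silver FG1835 the share was 52.6%, where all higher transcripts had 53.2%, and for those lower it was 44.6%, where all lower ones had 44.4%. Without FG1907_02 the share was 62.5%, compared with 52.5% of all. No other library of FG1907 was left out, so this share rests on the choice of that library.

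Of the 394 transcripts at that cut-off in FG1835 that were tested in FG1907, 12 had an unadjusted p under 0.01 there too. Over all transcripts tested in FG1907 the share was 0.519%. Of the 12, 6 had the same sign in both sets and 6 the opposite one. The 4 with a gene name among those of the same sign were edn2, hs3s1, abcg2 and nrx3a. On the log2 scale endothelin-2 differed by 1.06 in FG1835 and by 1.95 in FG1907, and hs3s1 by 1.12 and 2.34. The exporter abcg2 had 8.73, 18.7 and 6.33 in silver eels compared with 47.2, 228 and 20.8 in yellow eels in FG1835, and log2 differences of -3.15 and -2.96 in the sets in that order (in FG1835 adjusted p = 0.495, or a log2 difference of -2.86 without FG1835_06 and -1.62 without FG1835_02). The synaptic adhesion gene nrx3a had 73.1, 55.0 and 87.7 in the silver libraries and 122, 192 and 172 in the yellow libraries in FG1835, and log2 differences of -1.17 and -3.14 (in FG1835 adjusted p = 0.461, or a log2 difference of -1.04 without FG1835_02). The 4 with a gene name among those of opposite sign, chosen after their values were seen, were lox5 (g13078), ctsl2, cp1b1 and kcnd2. On the log2 scale lox5 differed by 6.04 in FG1835 and by -3.28 in FG1907, and the phosphatase-like ctsl2 by 2.79 and -2.37. The cytochrome P450 cp1b1 differed by -4.47 and 3.61, with 1, 1 and 5 reads in the silver libraries and 83, 35 and 60 reads in the yellow libraries of FG1835. The potassium channel kcnd2 had no read in the silver libraries of FG1835 and 59, 36 and 11 reads in the yellow ones, whereas in FG1907 it had 54, 28 and 17 reads in the silver libraries and 0 and 1 in the yellow ones.

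Of the 30 leading transcripts, 18 had the same sign in FG1907 and 12 the opposite one. Those with the same sign and similar sizes, given for FG1835 and then FG1907, included hebp2 with 2.43 and 2.56, scrb2 (g4731) with 1.90 and 1.99, s45a4 with 2.00 and 2.11 and acc2a with -1.93 and -2.29. For s45a4 the stages overlapped in FG1907, with 4446, 403 and 785 in silver eels compared with 632 and 243 in yellow eels. Its silver library FG1907_01 was far above the other silver libraries of that set. Others were near 0 in FG1907, such as kcd21 with 1.68 and -0.03, fbn1 with -1.52 and 0.06 and htra3 with -2.06 and 0.02. The differences of sc6a2 were -1.45 and 1.81, those of dhi2 (g12369) -2.62 and 0.88, and those of myo1e -1.16 and 1.75, so that these lay on opposite sides. Among higher ones sept5 had 1.45 and -0.46 and lrrc4 1.67 and -0.46.

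Several list medians lay on opposite sides in the sets. Leaving out FG1907_02 for these medians was a choice made with the data already seen. Collagens had a median of -0.76 in FG1835 and 0.50 in FG1907, where it was -0.24 without FG1907_02. The 7 matrix lists together had -0.47 in FG1835 and 0.30 in FG1907, or -0.09 without FG1907_02. Fibroblast markers had -0.52 in FG1835 and 0.65 in FG1907, or -0.41 without that library. Ribosomal proteins had 0.26 in FG1835 and -0.26 in FG1907, and there -0.14 without FG1907_02, so the sign stayed opposite. Defence against reactive oxygen species had 0.20 and 0.16. No list difference between the sets was tested.

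Whether a transcript's stage difference differed between the sets was tested in a fit of all 11 libraries. Of 27103 transcripts, 200 had an unadjusted p under 0.01 (0.738%), 1344 one under 0.05, and none passed an adjusted p under 0.05 with edgeR, where the smallest was 0.143 (DESeq2 called 23). Among named transcripts with a mean relative expression value above 50, ganc had the smallest p. Its log2 differences were 2.52 in FG1835 and -0.54 in FG1907 (interaction adjusted p = 0.416). Below that mean, kcnd2 and cp1b1, described above, had a smaller p than ganc. The lipid droplet protein plin2 was nearly level between the stages in FG1835, with 429, 666 and 522 in silver eels compared with 501, 536 and 364 in yellow eels and a log2 difference of 0.20, but stood at 2.94 in FG1907 (interaction adjusted p = 0.914). With no adjusted p under 0.05, none of these transcripts was shown to be particular to FG1835.

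**Figure D5:**
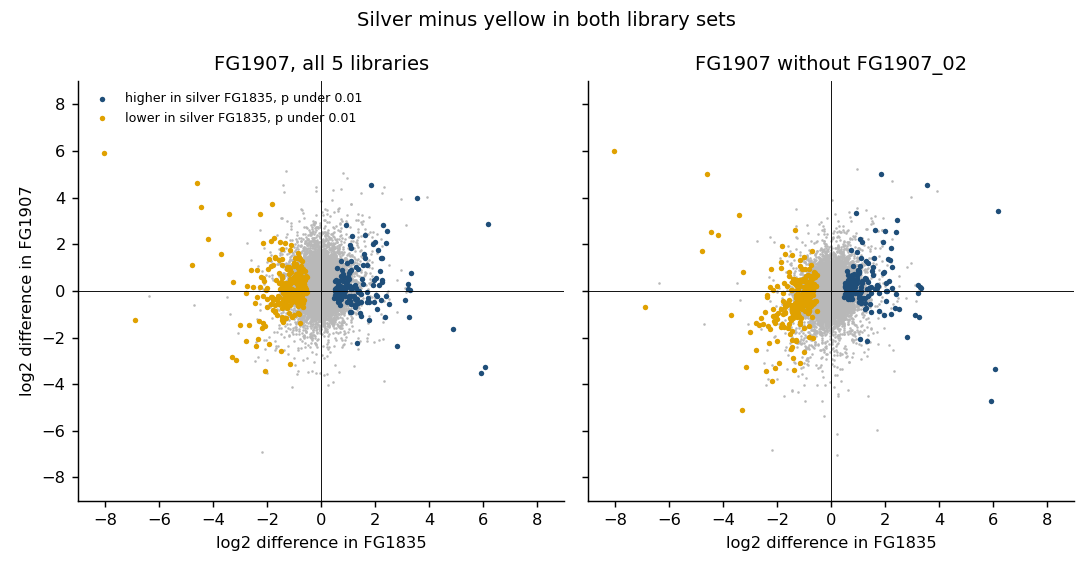
Log2 difference (silver minus yellow) of each transcript tested in both sets, FG1835 on the horizontal and FG1907 on the vertical axis, with all 5 FG1907 libraries at the left and without FG1907_02 at the right. Coloured points are those with an unadjusted p under 0.01 in FG1835, of which 47.7% lie on the same side of 0 in FG1907 at the left and 62.5% at the right.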

How the data were processed

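Libraries were poly(A)-selected and stranded. Per the study's methods, reads were mapped to a draft eel genome with TopHat 2.0.13 and counted per predicted transcript with HTSeq 0.6.1p1, after secondary alignments had been removed with SAMtools 1.2. The values used are the raw read counts deposited by the authors for 45974 predicted transcripts, of which 32673 carry a name. Columns of the authors' own comparisons (base means, fold changes and p-values) were not used, and 0 per-sample columns were left out. One yellow column is headed FG1935_03 and was taken as the library titled FG1835_03. The HTSeq strand setting is not given in the sources used here.

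Counts were tested with edgeR 4.0.16 in R 4.3.3 (filterByExpr with a minimum count of 10, TMM scaling, quasi-likelihood test, Benjamini-Hochberg adjustment). DESeq2 1.42.0 and limma 3.58.1 (voom) were alternatives, besides other filters, scalings and leaving out each library. The edgeR fits of the stage and interaction terms were tested on simulated data. Relative expression values are counts over median-of-ratios size factors, set within each library set. Each library is 1 eel, so p-values measure the spread between eels. An exact permutation of 3 against 3 cannot go below p = 0.1.

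Named transcripts had a name and a mean relative expression value above 50. They were the 15 with the smallest p in each direction, the 2 with the smallest p and the highest one in each of 51 gene lists, the 5 highest of all, the 10 with the smallest interaction p and the 2 highest per cell type. A further 35 were chosen after their values were seen. They include enpp2, ccnd1, axn2, dkk1, adm2, edn2, cp51a, sc4aa, finc, cspg4, psb8, lyg, abcg2, efnb1, nptx1 and ncam1. They also include both pygm and both gpda transcripts, mot1 (g33801), ldha (g21680), dhi2 (g16135), abcc9 (g26749) and egr1 (g37376 and g44008). Among collagens these are co5a1 (g1516), cola1, cooa1 and co6a2 (g14641 and g8369). The comparison and the lists were chosen with earlier results of these data known, and list members were trimmed by their descriptions. Lists are described by counts and medians, with no test of a list.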

Additional observations from a re-analysis of the deposited data

Results flagged for a closer look

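In 11 of the 219 named transcripts every silver library of FG1835 lay on one side of every yellow library. In these, every silver library of FG1907 lay on the other side of its yellow libraries. Many named transcripts were picked for a small p in FG1835, for a small interaction p or after their values were seen. Such opposite sides are thus partly built into the choice, and their share over all transcripts was not counted. The values below are the log2 difference in FG1835 minus that in FG1907, with the interaction test of edgeR over all 11 libraries. No transcript passed an adjusted p under 0.05 there. The smallest adjusted p over all transcripts was 0.143, and among these 11 the lowest was 0.774.

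Higher in silver eels of FG1835 and lower in those of FG1907 were lox5, pr285 and rs20. The lox5 transcripts g13078 and g17581 differed by 9.35 (adjusted p = 0.774) and 9.45 (adjusted p = 0.907). Within FG1907 the yellow FG1907_04 had a relative expression value, scaled within that set, of 370 for g13078, against 32.8 in the other yellow library. The transcriptional coactivator pr285 differed by 1.77 (adjusted p = 0.914), and the ribosomal protein rs20 by 0.79 (adjusted p = 0.914).

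Lower in silver eels of FG1835 and higher in those of FG1907 were 7 transcripts. The abcc9 transcripts differed by -1.60 (g19365, adjusted p = 0.914) and -1.26 (g26749, adjusted p = 0.914). Autotaxin (enpp2) differed by -3.94 (adjusted p = 0.914) and aldoc by -2.21 (adjusted p = 0.914). The lactate carrier mot1 (g33801) differed by -1.12 (adjusted p = 0.914). Collagen V (co5a1, g1516) differed by -1.79 (adjusted p = 0.914) and decorin (pgs2, g29452) by -1.35 (adjusted p = 0.914). For enpp2 the silver FG1907_02 had a relative expression value of 533, against 141 and 97.0 in the other silver libraries of that set.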

How the results depend on the processing

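With edgeR 0 transcripts passed an adjusted p under 0.05, against 3 with no filter, 140 with DESeq2 and 0 to 2 with a library left out. At an unadjusted p under 0.01 it gave 448 of 24657 tested, against 167 of 27103 with the spread shared with FG1907. With a library left out it gave 366 to 521. It gave 663 of 38159 with no filter and 307 of 15450 with a mean above 50 as the filter. DESeq2 gave 630 at that p. Scaling by RLE or upper quartile and limma-voom gave 446, 463 and 408. Of 108 named transcripts at that p, 22 kept it under every alternative and 0 turned in sign, while 71 lost it with the shared spread and 32 to 35 without a given library. Beside the differences of transcripts at that p, a library is named where its omission raised the unadjusted p most and above 0.01. It is also named where its omission moved their log2 difference by more than 1.5 times.

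For the difference between the sets, edgeR gave 0 transcripts at an adjusted p under 0.05, against 2 with no filter and 23 with DESeq2. At an unadjusted p under 0.01 it gave 200, against 303 with no filter, 370 with DESeq2 and 150 to 210 with a library of FG1835 left out. The share of FG1835 calls with the same sign in FG1907 was 47.7%, against 62.5% without FG1907_02 and 46.9% above a mean of 50. That share at an adjusted p under 0.05 could not be computed, since no transcript passed. Of 60 list medians, 29 moved by more than their spread under at least 1 alternative, for example elastic fibre proteins, at 0.02 without FG1835_01, and monocarboxylate carriers, at -0.00 without FG1835_03. The cause was not tested.

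With 3 eels a stage, few reads limit transcripts such as abcg2 and ha1f (g26592), whose silver libraries held 16 reads or fewer. Another ha1f transcript, g34991, held 95, 63 and 50 reads there. No paired analysis was possible, since the silver and the yellow libraries came from different eels.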
